A study of Mus musculus with 6 samples.

Results

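YAP1 and TAZ, the transcriptional coactivators held in check by the Hippo kinases, were followed with their targets and their TEAD partners through 10 genes of mouse liver sinusoidal endothelial cells, the fenestrated cells that line the capillaries of the liver. The 10 genes were taken by name from a deposited table of 48897 genes: Ctgf, Cyr61, Ankrd1, Amotl1, Amotl2, Yap1, Wwtr1, Tead1, Vgll3 and Vgll4. All 10 were among the 19033 genes with enough counts to be tested. The cells came from C57BL/6 mice aged 7 to 8 weeks and were collected 14 days after surgery, which was either a partial hepatectomy (PHx, in which lobes of the liver are cut away) or a sham operation (Sham). The cells had been enriched on anti-CD146 beads, and CD146 is also carried by other cells of the vessel wall. The labels give no genetic change and no drug in either group. Each group held 3 libraries, numbered 1, 3 and 4. The labels do not say that the libraries came from separate animals, so the p-values speak for the scatter among libraries, part of which may be technical.

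In the Hippo pathway, the kinases LATS1 and LATS2 phosphorylate YAP1 and TAZ (encoded by Wwtr1) and keep them out of the nucleus. When free, YAP1 and TAZ enter the nucleus and bind TEAD factors, which carry them to DNA. VGLL cofactors bind TEAD factors at an overlapping surface, and VGLL4 is known to compete with YAP1 there. Angiomotins, among them AMOTL1 and AMOTL2, bind YAP1 and TAZ at cell junctions, and Amotl2 is also a target gene. Ctgf, Cyr61 and Ankrd1 are the target genes most often read as a gauge of YAP and TAZ activity. These routes work through protein location and modification, which RNA counts do not measure.

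TEAD factors recognise the letters GGAATG, or CATTCC when read on the opposite strand. Promoter windows of 250 bases before the annotated start were available for 8 of the 10 genes from RefSeq (GRCm38.p6), and both spellings were searched. No window was available for Ctgf and Tead1. Of these 8 genes, 7 held at least 1 match and Amotl1 held none, against 13.1% of 13041 tested genes with such a window. A match is a description of the letters, not evidence of binding. The windows of Cyr61 and Ankrd1 are shown whole because both are standard YAP and TAZ targets and their windows lie outside the gene models. For the other genes 30 bases around the match are shown. Capitals mark the match, and all are written 5′ to 3′ on the strand of the gene.
Cyr61 (minus strand, chr3:145649986-145650235): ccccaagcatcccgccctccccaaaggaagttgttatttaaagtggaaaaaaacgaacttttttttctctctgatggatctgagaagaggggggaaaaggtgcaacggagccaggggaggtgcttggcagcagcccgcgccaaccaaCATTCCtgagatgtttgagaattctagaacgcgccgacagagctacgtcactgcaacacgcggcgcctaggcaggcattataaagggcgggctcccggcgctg
Ankrd1 (minus strand, chr19:36119845-36120094): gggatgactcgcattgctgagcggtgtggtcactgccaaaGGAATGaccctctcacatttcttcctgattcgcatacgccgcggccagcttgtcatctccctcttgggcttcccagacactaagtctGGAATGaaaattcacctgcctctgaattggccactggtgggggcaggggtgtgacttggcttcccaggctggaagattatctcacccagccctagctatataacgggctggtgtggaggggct
Amotl2 (plus strand, chr9:102717727-102717756): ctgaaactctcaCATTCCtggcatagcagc
Yap1 (minus strand, chr9:8004720-8004749): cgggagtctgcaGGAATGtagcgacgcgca
Wwtr1 (minus strand, chr3:57576029-57576058): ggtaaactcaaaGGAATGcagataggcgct
Vgll3 (plus strand, chr16:65815114-65815143): cccgcctccccaCATTCCggctaccctgcc
Vgll4 (minus strand, chr6:114969268-114969297): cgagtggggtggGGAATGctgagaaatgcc

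The match began 103 bases before the start in Cyr61, 65 in Amotl2, 141 in Yap1, 63 in Vgll3 and 82 in Vgll4. Ankrd1 held 2 matches, at 210 and 123 bases, and in Wwtr1 the match lay 136 or 170 bases before the start, depending on which of 2 annotated starts was used. The Amotl1, Amotl2 and Vgll4 windows lay wholly inside the deposited gene models, at internal starts. So did 174 bases of the Vgll3 window, its match among them. Among 12 other YAP and TAZ signature targets with a window, 3 held a match (Axl, Crim1 and Ptpn14), a share of 25.0%. Of 114 genes that were higher after PHx and had a window, 19.3% held a match.

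In these bulk libraries fewer cells of a type and less RNA per cell cannot be told apart. For several cell types the summed markers did not overlap between the groups. Summed counts ranged from 38765116 to 51888481 per library. The summed level of 12 sinusoidal endothelial markers, led by Stab1, Stab2 and Kdr, was 32762 to 34682 CPM in Sham and 17797 to 28046 CPM in PHx. CPM are counts scaled by library size and TMM factor. Of these 12 markers, 0 were called by the edgeR test described below, which called 0.846% of all tested genes higher and 0.0158% lower. DESeq2 called 5 of the 12 lower, against 126 of all 19033 tested genes. Log2 fold changes were negative in 11 and positive in 1 (Lyve1). 12 stellate cell and fibroblast markers summed to 1822 to 2366 CPM in Sham and 5436 to 6979 CPM in PHx. Mesothelial markers (8 genes) went from between 57.9 and 74.6 CPM to between 110.6 and 206 CPM, and smooth muscle and pericyte markers (8 genes) from between 93.6 and 121 to between 243 and 279 CPM. Neutrophil markers summed to 3804 CPM in PHx 4 and to between 22.5 and 553 CPM in the other libraries. The sums of hepatocyte, cholangiocyte and Kupffer cell markers overlapped between the groups, and no marker of the 8 cell type lists was at 0 in any library. The part of these other cells in the results on the 10 genes was not tested.

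Per length, the 10 genes spanned a wide range, from among the most abundant transcripts of these cells to near absence. Levels between genes are given as deposited RPKM (counts per length and library size), the mean ± SD over 3 libraries. In Sham, Ctgf stood at 110.3 ± 25.3 RPKM, Amotl2 at 105.0 ± 11.9 and Cyr61 at 96.9 ± 32.7, and the libraries of these 3 genes overlapped. Amotl1 followed at 62.8 ± 3.22 RPKM and Wwtr1 at 51.1 ± 3.38. Vgll4 (31.8 ± 1.57 RPKM) and Yap1 (29.7 ± 2.36 RPKM) overlapped with each other. Tead1 stood at 6.95 ± 0.63, Ankrd1 at 4.38 ± 1.0 and Vgll3 at 0.087 ± 0.036 RPKM, each below all libraries of the gene before it. Averaged over all 6 libraries, Cyr61 ranked at percentile 98.1 of the tested genes, Ctgf at 97.8, Ankrd1 at 58.0 and Vgll3 at 21.9.

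**Figure D1:**
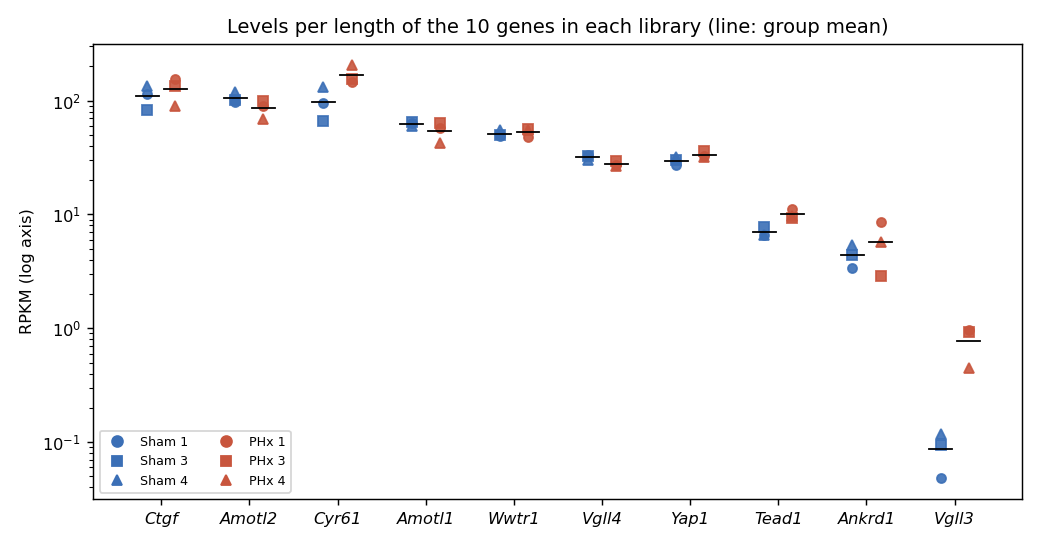
RPKM on a log axis for each of the 10 genes, in order of the Sham mean, with a point for every library and a line for each group mean. Vgll3 sits at the bottom in all libraries, with the PHx points at 0.443 to 0.967 RPKM above the Sham points at 0.048 to 0.118 RPKM.

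Of the 10 genes, Vgll3 alone passed the test between PHx and Sham, rising 8.59-fold, and none was lower. The test was edgeR's quasi-likelihood F-test with Benjamini-Hochberg adjustment over all 19033 tested genes at a threshold of 0.05, by which 0.846% of all tested genes were called higher and 0.0158% lower. Before adjustment 3 of the 10 genes had a p under 0.05 (Vgll3, Tead1 and Cyr61), as had 12.7% of all tested genes. In these 3 genes all PHx libraries lay above all Sham libraries, which was so for 10.6% of tested genes. In Vgll4 all lay below, as for 9.96% of tested genes, and in the other 6 genes the groups overlapped. The median log2 fold change of the 10 genes was 0.14, and that of all tested genes 0.03.

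**Figure D2:**
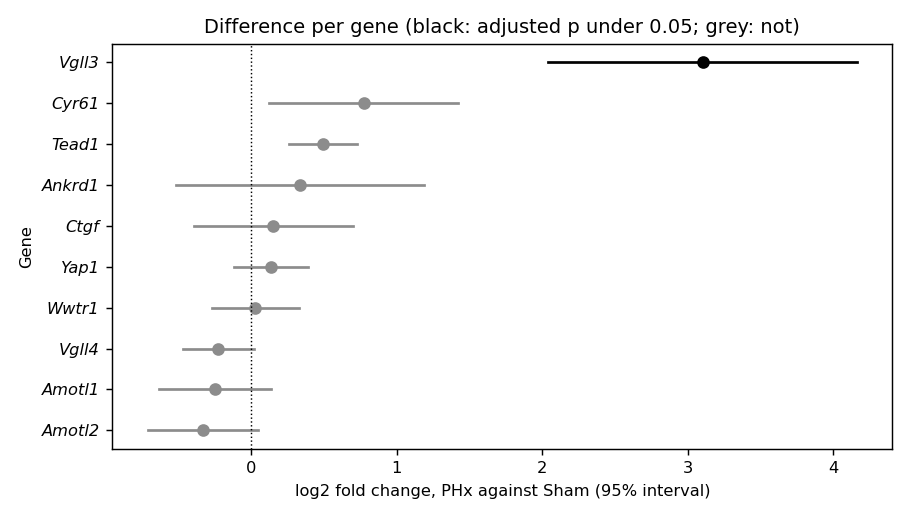
The log2 fold change of PHx against Sham for each of the 10 genes, with its 95% interval from the edgeR fit; black marks an adjusted p under 0.05. Vgll3, at 3.10, stands apart from the other 9 genes, which lie between -0.33 and 0.77.

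The coactivators themselves showed no difference that passed the test. Yap1 (chromosome 9, 7931999 to 8004596, mm10) was measured at 117, 126 and 135 CPM in Sham 1, 3 and 4 and at 129, 153 and 135 CPM in PHx 1, 3 and 4. The groups overlapped, and PHx exceeded Sham by 0.14 ± 0.11 on the log2 scale (± SE, 3 libraries per group; edgeR adjusted p = 0.620) and a 95% interval of -0.12 to 0.39. Wwtr1 (chromosome 3, 57455644 to 57575910), which encodes TAZ, was measured at 239, 239 and 265 CPM in Sham and at 214, 276 and 266 CPM in PHx. Its PHx libraries lay on both sides of the Sham libraries. Its log2 fold change was 0.03 ± 0.13 (edgeR adjusted p = 0.952), with a 95% interval of -0.27 to 0.32 and a sign that turned with upper-quartile scaling and with no filter on low counts. On the opposite strand, an overlapping pseudogene reached 562 counts in a library, against 13466 at most for Wwtr1. The use of strand is not given in the sources used here.

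Wwtr1 was the more abundant of the pair per length in all 6 libraries. The Yap1 to Wwtr1 ratio of RPKM was 0.560, 0.604 and 0.580 in Sham and 0.686, 0.632 and 0.577 in PHx. PHx 4 lay within the Sham range and the other PHx libraries above it. The ratio differed by 0.12 on the log2 scale, and the two-sided exact permutation test over 20 assignments gave p = 0.3, where 0.1 is the smallest value that 3 libraries against 3 allow. The difference was 0.056 without PHx 1 and 0.18 without PHx 4.

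Tead1, the TEAD factor among the 10 genes (chromosome 7, 112679320 to 112906805), was higher in each PHx library without passing the test over all genes. It was measured at 68.6, 77.4 and 66.3 CPM in Sham 1, 3 and 4 and at 104.3, 95.4 and 98.5 CPM in PHx 1, 3 and 4. The groups did not overlap and the spread within each was small. This gave a log2 fold change of 0.49 ± 0.10 (edgeR adjusted p = 0.0834), with a 95% interval of 0.26 to 0.73. DESeq2 on the same libraries, which called 3.79% of all tested genes higher, called Tead1 too (adjusted p = 0.00642). So did edgeR restricted to genes with at least 5 CPM in 3 libraries (adjusted p = 0.0495). Tead1 was not called with limma-voom (adjusted p = 0.107), or by edgeR with median-of-ratios scaling (0.0887), upper-quartile scaling (0.128) or no low-count filter (0.107). The same held for edgeR with library number as a block (0.228) and for each fit without a library (0.110 to 0.358).

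The other TEAD genes took different directions, and none passed the edgeR test. Tead3 was measured at 1.0, 1.74 and 1.28 RPKM in Sham and at 3.55, 2.15 and 3.91 RPKM in PHx, all above Sham, with a log2 fold change of 1.21 ± 0.30 (edgeR adjusted p = 0.152; DESeq2 adjusted p = 0.00676). Tead4 was measured at 8.42, 7.63 and 4.31 RPKM in Sham and at 5.76, 5.05 and 4.08 RPKM in PHx. Sham 4 lay within the PHx range, and the log2 fold change was -0.49 ± 0.26 (edgeR adjusted p = 0.470). Tead2, the most abundant of the family by mean, had values of 9.39, 12.4 and 10.7 RPKM in Sham and 13.7, 9.93 and 16.4 RPKM in PHx, with overlap (log2 fold change 0.27, edgeR adjusted p = 0.593).

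Summed over Tead1 to Tead4, the family stood at 25.9 ± 3.37 RPKM in Sham and 31.6 ± 4.40 RPKM in PHx. PHx 3, at 26.5 RPKM, lay within the Sham range of 22.8 to 29.5 RPKM. The two-sided exact permutation test gave p = 0.2, with 0.1 the smallest possible value. Within the sum, Tead4 took 33.1%, 25.9% and 18.9% in Sham and 16.9%, 19.1% and 12.0% in PHx. Tead3 took 3.94% to 5.92% in Sham and 8.11% to 11.5% in PHx.

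**Figure D3:**
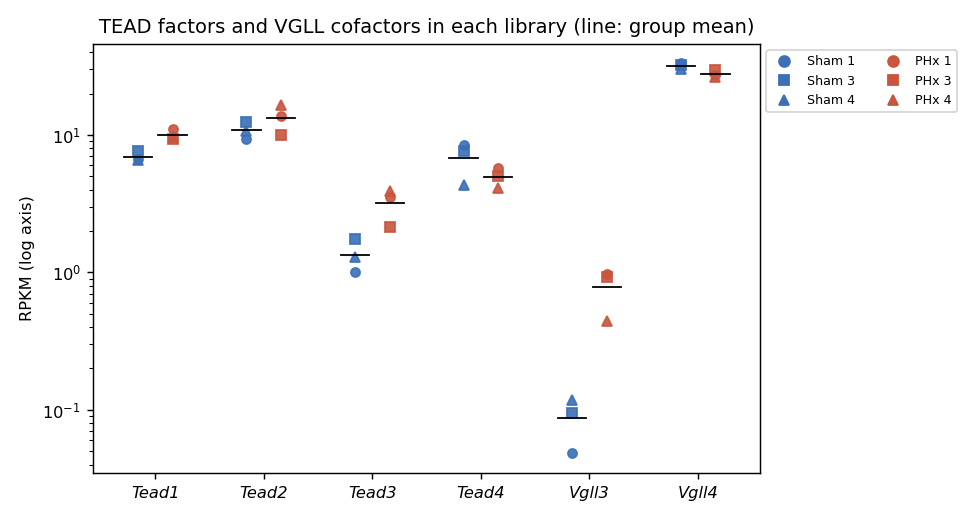
RPKM on a log axis for the 4 TEAD genes and for Vgll3 and Vgll4, with a point for every library and a line for each group mean. Tead1, Tead3 and Vgll3 have PHx points above all Sham points, and Vgll4 has PHx points below them.

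Vgll3, a TEAD-binding cofactor of the vestigial-like family (chromosome 16, 65815015 to 65866368), went from near absence to a low level. Its counts were 14, 37 and 44 in Sham 1, 3 and 4, against 352, 343 and 161 in PHx 1, 3 and 4. Scaled, these were 0.371, 0.715 and 0.894 CPM in Sham and 6.80, 7.02 and 3.35 CPM in PHx. PHx 4 held less than the other PHx libraries and still more than any Sham library. On the log2 scale the rise was 3.10 ± 0.46 (edgeR adjusted p = 0.0326), a fold of 8.59 with a 95% interval of 4.12 to 17.9. DESeq2 also called it (adjusted p = 2.1e-09).

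The call on Vgll3 depended on the libraries and the tool more than its size did. Leaving out each library in turn gave log2 fold changes of 2.80 to 3.37. The edgeR adjusted p was 0.105 without Sham 1, 0.171 without Sham 3, 0.140 without Sham 4, 0.0864 without PHx 1 and 0.0655 without PHx 3, and the call held without PHx 4 (0.0216). Over all genes these fits called 34, 6, 0, 58, 82 and 160 higher, in the same order, against 161 with all libraries. Lost calls in these fits were therefore not particular to Vgll3. With limma-voom the log2 fold change was 3.06 and the adjusted p 0.0761.

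Vgll4, the most abundant VGLL gene and a known competitor of YAP1 for TEAD (chromosome 6, 114860621 to 114969989), was measured at 140, 133 and 125 CPM in Sham and at 106, 124 and 110 CPM in PHx. The PHx libraries lay below the Sham libraries, but PHx 3 and Sham 4 were almost level. Its log2 fold change was -0.23 ± 0.10 (edgeR adjusted p = 0.415), with a 95% interval of -0.47 to 0.02. Vgll1 had 0 counts in all libraries, and Vgll2 had 1 count in Sham 1 and 0 elsewhere. For scale, 3 counts in the shallowest library, Sham 1, come to 0.0774 CPM before TMM scaling.

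As a share of the family's RPKM, Vgll4 held 99.6% to 99.8% in Sham and 96.6% to 98.3% in PHx. Vgll3 held 0.15%, 0.29% and 0.39% in Sham and 3.42%, 3.01% and 1.65% in PHx. The Vgll4 to Vgll3 ratio of RPKM was 686, 339 and 254 in Sham and 28.2, 32.2 and 59.6 in PHx, so Vgll4 stayed the more abundant in every library. The groups did not overlap, and the two-sided exact permutation test gave p = 0.1, the smallest value it can give here. The ratio contains the Vgll3 values and is not independent of the result on Vgll3.

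The 4 genes closest to Vgll3 in pattern were Upk1b, a membrane protein of mesothelium and urothelium, Cdh11, a mesenchymal cadherin, Ltbp2, a matrix protein, and Col1a1, a chain of type I collagen. Closeness was the root-mean-square difference of log2 CPM, each gene centred on its own mean, over the 6 libraries and 11338 candidate genes, and it was 0.23, 0.24, 0.27 and 0.29. Since they were picked for likeness over these same libraries, their shared order of libraries is part of the choice. Upk1b, for example, was measured at 0.557, 0.773 and 1.40 CPM in Sham and 8.33, 7.07 and 4.92 CPM in PHx. Upk1b, Cdh11 and Ltbp2 were called higher (edgeR adjusted p = 0.0300, 0.0260 and 0.0175) and Col1a1 was not (0.0669). Of the 6 fits that each left out a library, the call held in 1 for Upk1b (without PHx 4), in 1 for Cdh11 (without PHx 4) and in 4 for Ltbp2, which lost it without Sham 3 (0.0601) and without Sham 4 (0.137). With limma-voom Cdh11 was not called (adjusted p = 0.107), and DESeq2 (4.1e-12) and the limit of 5 CPM in 3 libraries (0.0496) called Col1a1. Upk1b is among the mesothelial markers and Col1a1 among the stellate and fibroblast markers given above.

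**Figure D4:**
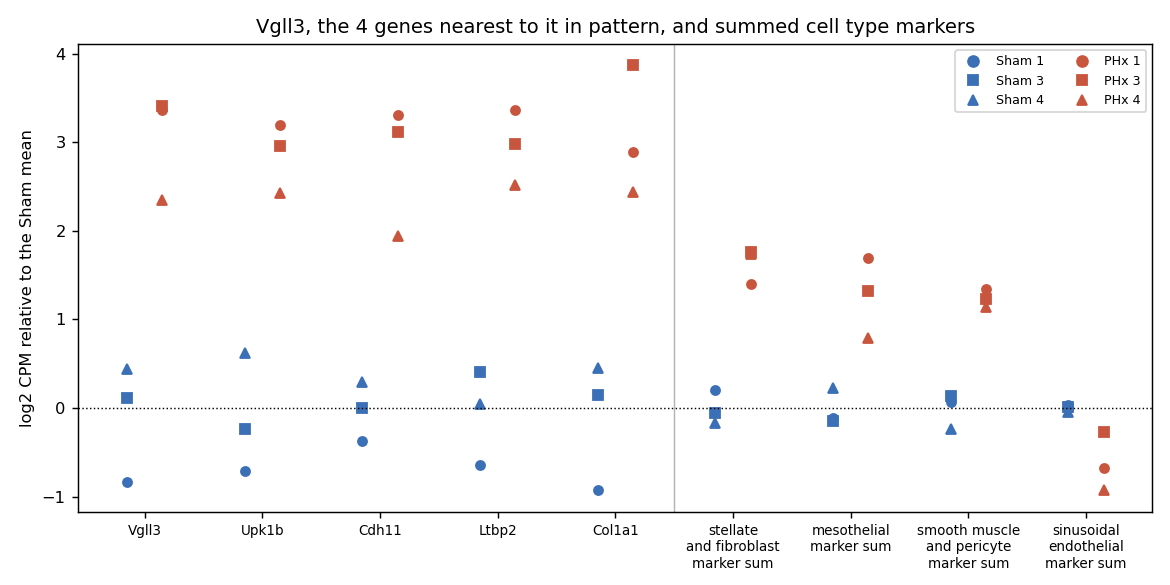
Left of the line, log2 CPM of Vgll3 and of the 4 genes nearest to it in pattern; right of it, the summed CPM of 4 marker lists, each relative to its own Sham mean, with a point for every library. PHx 4 is the lowest PHx point for Vgll3, its 4 neighbours and the mesothelial, smooth muscle and sinusoidal endothelial sums, and the last of these lies below Sham in all PHx libraries.

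None of the 3 classical target genes passed the test, and their libraries ran in different orders. Cyr61, which encodes a secreted matricellular protein (chromosome 3, 145646971 to 145649985), was measured at 197, 133 and 268 CPM in Sham 1, 3 and 4 and at 276, 321 and 423 CPM in PHx 1, 3 and 4. All PHx libraries lay above Sham, though PHx 1 stood just over Sham 4. On the log2 scale the difference was 0.77 ± 0.27 (edgeR adjusted p = 0.323), a fold of 1.71 with a 95% interval of 1.09 to 2.67 before adjustment.

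Ctgf, its relative in the CCN family and the gene of connective tissue growth factor (chromosome 10, 24595442 to 24598683), was measured at 284, 200 and 323 CPM in Sham and at 350, 329 and 217 CPM in PHx. PHx 4 was lower than both Sham 1 and Sham 4. The log2 fold change was 0.15 ± 0.23 (edgeR adjusted p = 0.813), with a 95% interval of -0.40 to 0.70. Without Sham 3 it was -0.05. An overlapping transcript on the opposite strand reached 184 counts in a library, against 18103 at most for Ctgf, and the use of strand is not given in the sources used here.

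Cyr61 and Ctgf went opposite ways in PHx 4, which held the highest Cyr61 level of the 6 libraries and a Ctgf level below all others except Sham 3. The Ctgf to Cyr61 ratio of RPKM was 1.22, 1.27 and 1.02 in Sham and 1.07, 0.864 and 0.434 in PHx. PHx 1 lay within the Sham range, and the others below it. The difference was -0.66 on the log2 scale (two-sided exact permutation p = 0.2, smallest possible 0.1), and it was -0.27 without PHx 4. Both genes respond quickly to serum and stress, and 17 immediate early genes summed to 14998, 6291 and 17674 CPM in Sham 1, 3 and 4 and to 8242, 15426 and 21088 CPM in PHx 1, 3 and 4. Sham 3 was lowest and PHx 4 highest in that sum, as they were for Cyr61. PHx 1 lay below Sham 1 and Sham 4 in that sum. Its Cyr61 level (276 CPM) was above all Sham libraries, and its Ctgf level (350 CPM) was the highest of the 6 libraries. The part of the immediate early sum in the Cyr61 and Ctgf values was not tested. Among the immediate early genes 0 of 17 passed the edgeR test, 0 had an unadjusted p under 0.05 and DESeq2 called 0. Their log2 fold changes had a median of 0.41, with 15 positive and 2 negative values. The 3 with the highest CPM were Jun and Egr1, which were the negative ones at -0.16 and -0.13, and Fos at 0.14.

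Ankrd1, an ankyrin repeat protein known as a stretch-responsive target in muscle (chromosome 19, 36111965 to 36119844), was the least abundant of the 3 classical targets. It was measured at 6.10, 7.81 and 9.57 CPM in Sham and at 14.3, 5.20 and 10.1 CPM in PHx. PHx 3 lay below all Sham libraries and the other PHx libraries above them. The log2 fold change was 0.33 ± 0.36 (edgeR adjusted p = 0.722), with a 95% interval of -0.52 to 1.18, and it was -0.04 without PHx 1.

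The angiomotin-like genes had negative values. Amotl2 (chromosome 9, 102717294 to 102733418) was measured at 462, 468 and 559 CPM in Sham and at 388, 468 and 325 CPM in PHx, where PHx 3 was level with Sham 3. Its log2 fold change was -0.33 ± 0.16 (edgeR adjusted p = 0.444), with a 95% interval of -0.71 to 0.05. Amotl1 (chromosome 9, 14541966 to 14662960) was measured at 640, 638 and 582 CPM in Sham and at 523, 625 and 416 CPM in PHx. Its log2 fold change was -0.25 ± 0.16 (edgeR adjusted p = 0.552), with a 95% interval of -0.63 to 0.13. Both were lowest in PHx 4, as was the sinusoidal endothelial marker sum at 17797 CPM, and the part of that sum in these values was not tested. Amot, the third angiomotin, had a log2 fold change of -0.07 ± 0.19 (edgeR adjusted p = 0.900) and was also lowest in PHx 4, at 56.8 CPM.

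The other CCN genes were mostly scarce. Wisp1 was measured at 70.1, 68.1 and 66.7 CPM in Sham and at 46.1, 67.9 and 33.1 CPM in PHx (log2 fold change -0.48 ± 0.24, edgeR adjusted p = 0.458). Wisp2 had 11, 17 and 20 counts in Sham and 110, 44 and 62 in PHx, with no overlap (log2 fold change 2.06 ± 0.49, edgeR adjusted p = 0.135; DESeq2 adjusted p = 0.00757). Nov (1.48 ± 0.54) and Wisp3 (0.91 ± 0.80) did not pass, with edgeR adjusted p of 0.327 and 0.656.

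Further YAP and TAZ targets were read from 18 genes of a published target signature that are not among the 10, of which 17 were tested. 3 were called higher, against 0.846% of all tested genes, none lower and 14 did not pass. The list had a median log2 fold change of 0.67, against 0.03 for all tested genes. At an unadjusted p under 0.05, edgeR had 9 of the 17, against 12.7% of all tested genes, and DESeq2 called 5 higher, against 3.79%. Igfbp3, a secreted binding protein of insulin-like growth factors, rose from 80.4, 55.1 and 63.6 CPM in Sham to 245, 259 and 265 CPM in PHx, a log2 fold change of 1.95 ± 0.15 (edgeR adjusted p = 0.00624). Its PHx libraries were close to each other and far above Sham. Arhgef17, a guanine nucleotide exchange factor, rose from 40.6, 43.6 and 30.0 CPM to 93.3, 78.5 and 95.7 CPM (1.23 ± 0.16, edgeR adjusted p = 0.0221). Myof, the membrane repair protein myoferlin, rose from 28.8, 26.1 and 22.2 CPM to 45.2, 41.8 and 45.1 CPM (0.77 ± 0.12, edgeR adjusted p = 0.0430). When each library was left out in turn, Igfbp3 lost its call without Sham 4 (adjusted p = 0.0618), where 0 of all tested genes were called. It kept the call in the other 5 fits. Arhgef17 lost its call without Sham 1 (0.103), Sham 3 (0.115), Sham 4 (0.0916) and PHx 1 (0.0684), and Myof lost it in all 6 fits (0.0698 to 0.262). Of the 12 stellate cell and fibroblast markers 8 were also called higher, as were 4 of 8 smooth muscle and pericyte markers and 2 of 8 mesothelial markers. The part of these other cells in the values of the signature genes was not tested.

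The Hippo kinases and their regulators showed 0 calls among 22 tested genes, in a range of log2 fold changes from -0.35 to 0.78 and a median of 0.07. At an unadjusted p under 0.05, edgeR had 4 of the 22, against 12.7% of all tested genes, and DESeq2 called 1 higher, against 3.79%, so the list lay near the background. Taok2, Dchs1 and Map4k4, the 3 with the highest CPM (not adjusted for length), had log2 fold changes of -0.35, -0.20 and 0.10. Frmd6, an upstream regulator named here after its values were seen, had the highest, at 0.78 ± 0.16 (edgeR adjusted p = 0.0830, DESeq2 adjusted p = 0.00324). Targets and factors of SRF, which shares several target genes with YAP and TAZ, had 0 calls among 12 tested genes, 11 positive values and a median of 0.24. At an unadjusted p under 0.05, edgeR had 4 of the 12, against 12.7% of all tested genes, and DESeq2 called 3 higher, against 3.79%. Flna, Tpm4 and Tagln2, the 3 with the highest CPM, had log2 fold changes of 0.55, 0.23 and 0.22. The highest was Fhl2, a LIM-domain protein also named after its values were seen, from 0.766 to 5.09 CPM (2.72 ± 0.60, edgeR adjusted p = 0.110, DESeq2 adjusted p = 0.000137). With no filter on low counts, edgeR called both Frmd6 (adjusted p = 0.0194) and Fhl2 (0.0359).

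**Figure D5:**
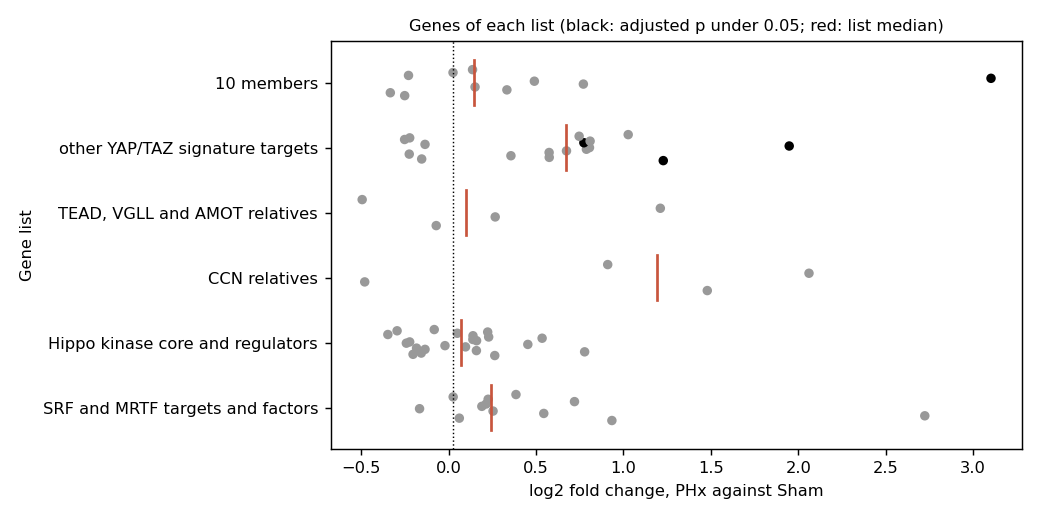
The log2 fold change of every tested gene in 6 lists, with list medians in red, the median of all tested genes as a dotted line, and black points for an adjusted p under 0.05. Called genes appear among the 10 genes (Vgll3) and the other signature targets (Igfbp3, Arhgef17 and Myof), and the Hippo list centres on 0.07.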

How the data were processed

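Counts per gene were deposited by the authors as whole numbers for 6 libraries, 3 per group, with RPKM values and gene lengths beside them. Per the submitters' processing notes, bcl2fastq, TopHat2 2.0.13 and the mm10 (GRCm38) build were used. The counter, annotation release and use of strand are not given in the sources used here. The deposited RPKM equalled count over length and summed counts for 100% of values above 0, at a relative tolerance of 1e-06. 27 names that had become dates were restored.

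Tests used edgeR 4.0.16 in R 4.3.3 on the counts, with TMM scaling, filterByExpr, robust quasi-likelihood F-tests and group as the only term. SE is the absolute log2 fold change over the square root of F. Ratios used RPKM and an exact permutation test. On simulated counts for 19033 genes, with 100 genes changed at each size, the fit recovered 20% of genes changed by a log2 size of 1 and 59% of those changed by 2, and 6 of 85 calls were false.

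Alternatives were other scalings and filters, DESeq2 1.42.0, limma-voom (limma 3.58.1), a replicate block and leaving out each library. The 10 genes and all lists were chosen with earlier results of these data known. Named genes were the 10, their TEAD, VGLL, angiomotin and CCN relatives, and called (up to 6) or the 3 most abundant genes of each list. The 4 tested genes nearest in pattern to each called member were also named, from those with at least 5 CPM in the higher group and using a prior count of 2.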

Additional observations from a re-analysis of the deposited data

How the results depend on the processing

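Over all genes 161 were called higher and 3 lower. Dropping the low-count filter gave 359 and 30, DESeq2 gave 721 and 126, and the replicate block gave 14 and 1. The 6 fits that each left out a library ranged from 0 (without Sham 4) to 160 (without PHx 4) higher genes. Lower genes ranged from 0 (without Sham 4) to 9 (without PHx 3). Of the 10 genes 1 was called higher, against 2 with DESeq2 (Vgll3 and Tead1), 0 with limma-voom and 0 with the replicate block, where Vgll3 was at 3.10 with an adjusted p of 0.165. The fits without a library gave 0 to 1 higher. The 10 genes kept 0 lower under each alternative run. For the low-count filter, DESeq2, limma-voom and the block the cause was not tested, and the fits without a library had fewer samples. The replicate block also ended the calls of Arhgef17 (adjusted p = 0.129), Myof (0.141), Upk1b (0.158), Cdh11 (0.156) and Ltbp2 (0.122), while Igfbp3 stayed called. No label says that the numbers pair the libraries, so they were not taken as pairs. Deviations from the group mean in libraries of equal number had correlations of -0.09, -0.23 and 0.03. Libraries of unequal number were not compared in this way, so these values do not settle whether the libraries are paired.

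The limit of 5 CPM in 3 libraries removed Vgll3, and the 1 gene called higher there was Tead1. Over the alternatives in which they were tested, refitted values of the 10 genes kept their direction and their side of the threshold in 112 cases, lost a call in 7 (Vgll3), gained it in 2 (Tead1) and turned sign in 8 (Wwtr1, Ctgf and Ankrd1). Wwtr1 was at -0.0092 with upper-quartile scaling, at -0.0038 with no filter, and between -0.051 and 0.12 when each library was left out. Leaving out each library gave -0.050 to 0.34 for Ctgf, -0.041 to 0.63 for Ankrd1, -0.31 to 0.10 for Amot, -0.23 to 0.41 for Fos, -0.45 to 0.093 for Jun and -0.64 to 0.30 for Egr1. Egr1 was at 0.087 with limma-voom. The 4 quantities from RPKM kept their direction in each fit without a library. The block could not change any of these differences, nor could scaled CPM change those of the ratios, since they are equal by construction. With scaled CPM the summed Tead1 to Tead4 difference was 0.35 on the log2 scale, against 0.28 with RPKM. Vgll3 had 14 to 44 counts per Sham library, the fewest of the 10 genes.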
